A study of Mus musculus with 34 samples.

Results

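The comparison described here is that of bomedemstat (BOM) with the vehicle DMSO after 96 h in RP-116, RP-48 and G8545, cultured lines of mouse small cell lung cancer (SCLC). Its members are the BOM and the DMSO library of each line, 6 of the 34 libraries of the series, paired by line. BOM inhibits LSD1, the histone demethylase encoded by Kdm1a. The groups were RP-116, RP-48 and G8545 cells in BOM for 96 h, against cells of the same 3 lines in DMSO for 96 h, with polyadenylated RNA sequenced from each and 1 library per line and treatment. The labels describe all 3 as murine SCLC lines and give neither their genotypes nor the dose. Used as a look-up were cultures of RP-48OVA-LLO190, a line whose name points to RP-48 and whose derivation the labels do not give. They were held for 10 d in BOM (n = 2) or DMSO (n = 3), and total RNA was sequenced. Further 10 d cultures of this line, in BOM or DMSO with interferon gamma (IFNg), entered the 10 d fit for its estimate of the spread.

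LSD1 works in a complex with CoREST proteins and histone deacetylases, and it removes methyl groups from histone H3 at enhancers and promoters. Repressors with a SNAG domain, such as INSM1 and GFI1, recruit the complex to DNA. SCLC is a neuroendocrine lung cancer, and active Notch receptors with their HES and HEY targets are known to oppose the neuroendocrine program.

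The cells carried the markers of their label. The summed level of 9 neuroendocrine SCLC markers was 3738 CPM (counts scaled to the size of the library) in RP-116, 2993 in RP-48 and 2556 in G8545 with BOM, against 4053, 2903 and 3240 with DMSO. Tuft-like, myeloid, lymphocyte and endothelial marker lists summed to at most 17.8 CPM in each library, and Cd3e was at 0 in all 6 libraries. Of the 10 fibroblast markers, the sum was 85.8 CPM in G8545 with BOM and 165 with DMSO, most of it Pdgfra (49.3 CPM with BOM and 157 with DMSO), whereas in the libraries of RP-116 and RP-48 the sum was at most 18.1 CPM. Other fibroblast markers ran the other way in G8545, with Lum at 28.6 CPM with BOM and 5.46 with DMSO, Thy1 at 3.75 and 1.53, Dcn at 2.21 and 0.288, Pdgfrb at 1.06 and 0.479, and Fap at 0.480 and 0. Totals were 8.83 M counts in RP-116, 9.97 M in RP-48 and 9.93 M in G8545 with BOM, against 8.71, 9.27 and 9.96 M with DMSO, and mitochondrial genes took 0.708 to 1.58% of the counts. Kdm1a itself was at 858 CPM in RP-116, 478 in RP-48 and 497 in G8545 with BOM, against 919, 522 and 581 CPM with DMSO. The log2 fold change of -0.15 (SE 0.11) did not pass the test (adjusted p = 0.922, edgeR quasi-likelihood test with the line as a block).

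Few genes lay past 2-fold in all 3 lines at 96 h, and most of those past 2-fold were so in G8545. Of 28432 genes in the table, 11856 were measured in every line, that is with at least 20 counts over the 2 libraries of a line. Among them 88 genes lay past 2-fold higher and 68 past 2-fold lower with BOM in RP-116, which is 0.742 and 0.574% of the genes. In RP-48 the numbers were 199 higher (1.68%) and 108 lower (0.911%), and in G8545 they were 549 higher (4.63%) and 224 lower (1.89%). Differences are of log2 CPM after TMM scaling with a prior count of 2, and since a line has a single library per treatment, these counts are descriptions without a test. Any other difference between the cultures of a line cannot be told apart from BOM, and in bulk RNA a change in the share of cells and a change of RNA per cell cannot be told apart either. The spread of the differences over genes grew in the same order, with an SD of 0.31 in RP-116, 0.38 in RP-48 and 0.56 in G8545.

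**Figure D1:**
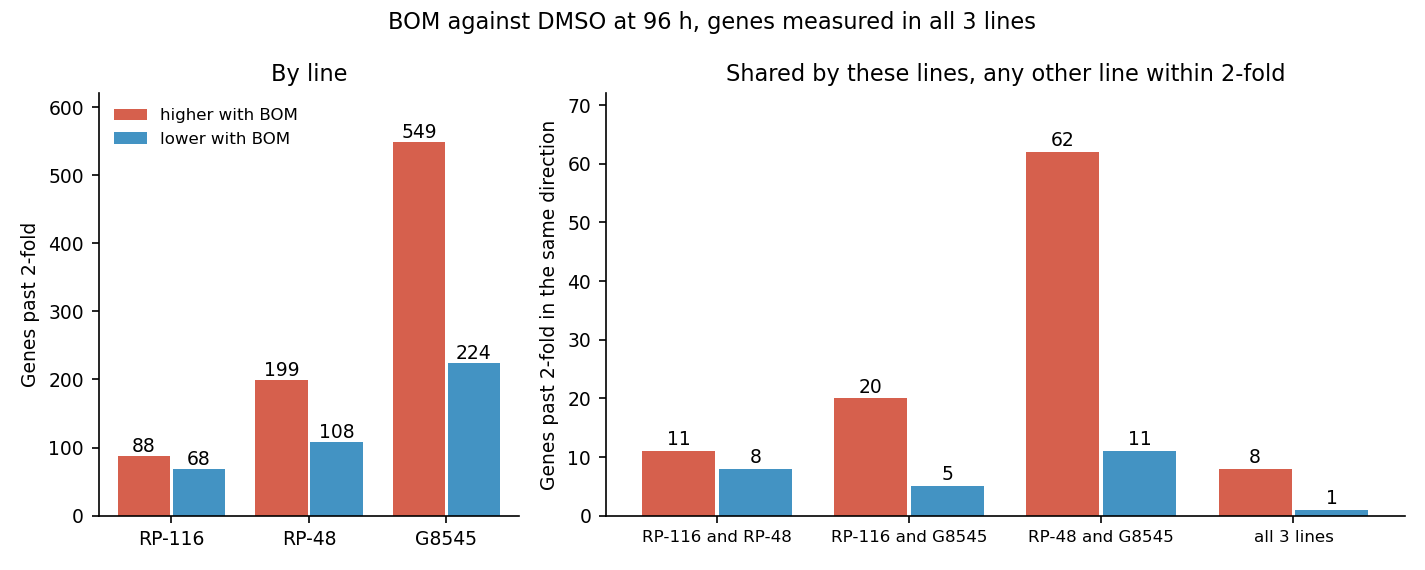
Numbers of genes past 2-fold with BOM at 96 h among the 11856 genes measured in RP-116, RP-48 and G8545. The left panel counts genes higher and lower in each line, with 88 and 68 genes in RP-116, 199 and 108 in RP-48 and 549 and 224 in G8545, and the right panel counts genes shared in the same direction by the lines named with any other line within 2-fold, with 9 genes in all 3.

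Most genes, 10806 or 91.1%, lay within 2-fold in all 3 lines. Past 2-fold in the same direction in 2 lines, and within 2-fold in the third, were 11 higher and 8 lower genes for RP-116 and RP-48, 20 and 5 for RP-116 and G8545, and 62 and 11 for RP-48 and G8545. Of the genes past 2-fold higher, those shared by RP-48 and G8545 made up 38.2% of the RP-48 genes and 13.8% of the G8545 genes. For RP-116 and RP-48 the shares were 22.7% of the RP-116 genes and 10.1% of the RP-48 genes. Across the 11856 genes, which share their libraries and are not independent, the differences had a Spearman correlation of 0.02 between RP-116 and RP-48, -0.16 between RP-116 and G8545 and 0.19 between RP-48 and G8545. At any size, 1324 genes (11.2%) lay higher and 1618 (13.6%) lower in each of the 3 lines. Shares near these arise where the signs in the 3 lines are unrelated and even, so these counts do not measure shared change. Past 2-fold in all 3 lines were 8 genes on the higher side (0.0675%) and 1 on the lower side (0.00843%).

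Of the 8 genes on the higher side, Notch1, Itpr3, Sdk2, Megf10, Slc12a4, Itgb4 and Tm6sf1 are described here. Promoters of 2 of them are shown, those of Notch1, the Notch receptor gene among them, and of Itpr3. The calcium channel gene Itpr3 had the lowest adjusted p of the 8. Each sequence runs 5′ to 3′ on the gene's strand from 250 bases before to 50 bases after the start that RefSeq gives (build GRCm38.p6). The Notch1 promoter is chr2:26503773-26504072 on the minus strand and that of Itpr3 chr17:27057054-27057353 on the plus strand. The RefSeq start of Notch1 lies inside the longer GENCODE gene given next. Lower case means that none of the letters searched were found on either strand, namely TGGGAA (the core read by RBPJ, the DNA-binding partner of Notch), CAGCTG (an E-box) and AATCNNNGC (a core of GFI1).
Notch1: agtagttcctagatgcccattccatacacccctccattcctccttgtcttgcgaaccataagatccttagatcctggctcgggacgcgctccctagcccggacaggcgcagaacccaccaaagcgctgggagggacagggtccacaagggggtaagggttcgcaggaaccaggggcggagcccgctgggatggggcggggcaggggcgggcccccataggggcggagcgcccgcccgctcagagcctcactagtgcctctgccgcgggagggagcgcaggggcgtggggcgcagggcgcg
Itpr3: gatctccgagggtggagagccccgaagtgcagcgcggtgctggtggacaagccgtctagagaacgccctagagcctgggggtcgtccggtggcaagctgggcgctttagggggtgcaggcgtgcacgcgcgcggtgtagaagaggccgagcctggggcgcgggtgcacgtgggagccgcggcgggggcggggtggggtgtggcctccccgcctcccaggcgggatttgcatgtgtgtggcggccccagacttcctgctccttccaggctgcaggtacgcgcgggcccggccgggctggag
Of the 9 genes past 2-fold in all 3 lines 4 had a promoter in the RefSeq table, and 0 of the 4 held any of the 3 motifs, which 25.6, 16.3 and 10.3% of 32851 promoters of the same length hold. The absence of these letters in this window says nothing of the factors.

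Notch1 (ENSMUSG00000026923.15, chromosome 2, 26457903 to 26516663, minus strand, GRCm38, the build also named mm10) was at 18.7 CPM in RP-116, 109 in RP-48 and 80.5 in G8545 with BOM, against 3.41, 29.9 and 4.89 CPM with DMSO. Each BOM library lay above the DMSO library of its line, as the rule that chose the gene asks. Levels overlapped across lines, because RP-48 with DMSO lay above RP-116 with BOM. The differences were 2.38, 1.86 and 3.98 log2 units, with exact 95% intervals of 1.86 to 3.09 in RP-116, 1.68 to 2.07 in RP-48 and 3.63 to 4.48 in G8545 that cover counting error only. In the fit of all lines BOM over DMSO was 2.74 (SE 0.39) on the log2 scale, which did not pass (adjusted p = 0.170, edgeR). Without G8545 it was 2.06 and passed (adjusted p = 3.46e-07, edgeR). That fit holds RP-116 and RP-48 alone and leaves 1 residual degree of freedom. Notch1 was chosen for its differences in these same libraries, so the p-value is no separate support. The difference in G8545 was larger than in the other lines by 1.98 (SE 0.36) log2 units (adjusted p = 0.00103, edgeR test of the line difference, 1 residual degree of freedom).

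Itpr3 (ENSMUSG00000042644.9, chromosome 17, 27057304 to 27122223, plus strand) encodes an inositol trisphosphate receptor, a channel that releases calcium from the endoplasmic reticulum. Its level was 244 CPM in RP-116, 296 in RP-48 and 108 in G8545 with BOM, against 84.6, 70.6 and 41.8 CPM with DMSO, and here every BOM library lay above every DMSO library. The differences of 1.53, 2.07 and 1.37 log2 units lay within 2-fold of each other. The log2 fold change over the lines was 1.66 (SE 0.16, adjusted p = 0.0565, edgeR), the lowest adjusted p of the 13333 genes tested, tied with Vim. No difference between G8545 and the other lines was called for Itpr3 (-0.42, SE 0.27, adjusted p = 0.491). Its log2 fold change was 1.72 without RP-116 and 1.45 without RP-48, where it did not pass. Without G8545 it was 1.80 and passed (adjusted p = 4.09e-08, edgeR). As for Notch1, the gene was chosen for its differences in these same libraries, so the p-value is no separate support.

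Among the other genes on the higher side, Sdk2, a cell adhesion protein of synapses, had 20.1 CPM in RP-116, 19.1 in RP-48 and 52.6 in G8545 with BOM, against 6.83, 6.45 and 9.68 CPM with DMSO, and the groups did not overlap. Megf10, an engulfment receptor, had 3.29 CPM in RP-116, 10.4 in RP-48 and 24.7 in G8545 with BOM, against 1.34, 3.39 and 10.1 CPM with DMSO, and its RP-116 interval (0.24 to 2.45) rested on 28 counts with BOM and 11 with DMSO. Slc12a4, a potassium and chloride cotransporter, had 9.27 CPM in RP-116, 28.8 in RP-48 and 63.3 in G8545 with BOM, against 2.44, 13 and 27.4 CPM with DMSO. RP-116 held the least of both genes in either treatment, so the groups overlapped across lines. The same direction in each line's pair is set by the rule that chose these genes. Log2 fold changes over the lines were 1.88 (SE 0.24) for Sdk2, 1.40 (SE 0.25) for Megf10 and 1.35 (SE 0.21) for Slc12a4, with edgeR adjusted p-values of 0.163 to 0.238. None of the 3 differed by line past the test.

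Itgb4, Tm6sf1 and Insrr had mean levels under the minimum for named genes and were chosen after their values were seen. Itgb4, an integrin subunit of epithelial anchoring junctions, had 3.76 CPM in RP-116, 4.74 in RP-48 and 8.45 in G8545 with BOM, against 0.975, 1.86 and 2.11 CPM with DMSO. Tm6sf1 had 4.46 CPM in RP-116, 4.94 in RP-48 and 7.97 in G8545 with BOM, against 1.83, 2.08 and 2.01 CPM with DMSO. Both groups stood apart for each of these genes. Insrr, a receptor of the insulin receptor family that senses alkaline pH, was the single gene past 2-fold lower in all 3 lines, with 14.2 CPM in RP-116, 1.21 in RP-48 and 0.480 in G8545 with BOM, against 36.1, 3.71 and 1.63 CPM with DMSO. RP-116 carried most of it, so the groups overlapped across lines, and the G8545 values rested on 5 counts with BOM and 17 with DMSO. The library kit does not mark the strand, and GENCODE places genes on the opposite strand over Notch1, Itpr3, Itgb4, Tm6sf1, Slc12a4 and Insrr, so reads of such partners cannot be told apart from theirs.

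**Figure D2:**
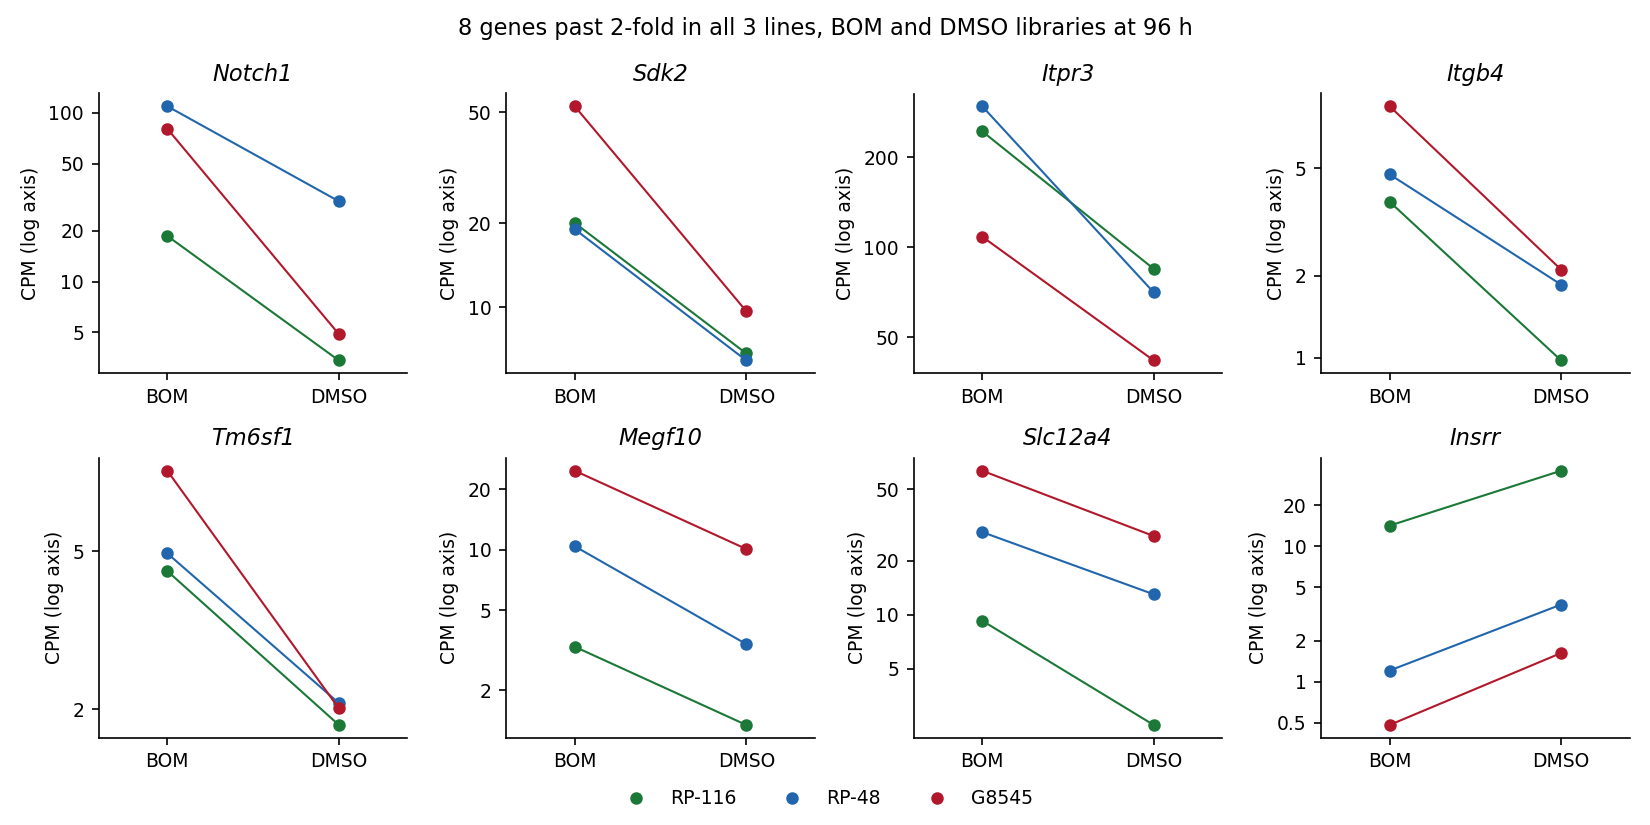
Levels of 8 of the 9 genes past 2-fold in the same direction in all 3 lines, in CPM on log axes, with 1 point per library and a line joining the BOM and DMSO libraries of a cell line. Notch1, Sdk2, Itpr3, Itgb4, Tm6sf1, Megf10 and Slc12a4 lie higher with BOM in every line and Insrr lies lower, while Notch1 spans 3.41 to 109 CPM over the 6 libraries.

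The membership depends on the size asked for. Where the mean level was 2 or more log2 CPM, Slc12a4 was just inside, with a smallest difference of 1.14, and Cpne2 (0.96), C1qtnf6 (0.95) and the Notch target Hes1 (0.91) were just outside. At 1.5-fold 57 genes lay higher and 4 lower in all 3 lines, and at 3-fold 1 lay higher and 0 lower. With at least 100 counts asked for in each line, 3 lay higher and 0 lower.

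The fit over the 3 lines called 0 of 13333 genes (0% in each direction, edgeR, adjusted p under 0.05). At an unadjusted p under 0.05 it held 579 genes on the higher side (4.34%) and 233 on the lower side (1.75%), with 2 residual degrees of freedom. limma voom called 0 genes as well, and DESeq2 called 59, of which 56 were higher. Without G8545 there were 84 higher and 65 lower genes (0.623 and 0.482% of 13485), without RP-116 there was 1 and without RP-48 there were 0.

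Of the 22 gene lists described, that of the Notch targets had the highest median difference in each line. Of the Notch receptors, Notch2 lay higher in each line, with 47.2 CPM in RP-116, 55 in RP-48 and 67.8 in G8545 with BOM, against 39.3, 37.1 and 32.9 CPM with DMSO. Notch4 lay lower in each line, at 9.74 CPM in RP-116, 1.51 in RP-48 and 2.98 in G8545 with BOM and 18.8, 1.75 and 3.45 CPM with DMSO. Notch3 was near 0 in RP-116 and RP-48 and had 3.36 CPM in G8545 with BOM, against 0.959 CPM with DMSO, from 35 and 10 counts. The log2 fold change over the lines of Notch2 was 0.63 (SE 0.18, adjusted p = 0.540, edgeR).

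The targets of the receptors lay on the higher side in most cases. Hes1, a transcriptional repressor, had 13.5 CPM in RP-116, 34.6 in RP-48 and 9.41 in G8545 with BOM, against 7.07, 17.7 and 2.20 CPM with DMSO. Hes5, a repressor of the same family, had 1.17 CPM in RP-116, 8.17 in RP-48 and 15.8 in G8545 with BOM, against 0.244, 2.08 and 1.05 CPM with DMSO. In RP-116 Hes5 rested on 10 counts with BOM and 2 with DMSO, fewer than the 20 asked for, so it is not among the genes of all 3 lines. For Hey1, which acts with the HES repressors, the values were 16.8 CPM in RP-116, 52.5 in RP-48 and 116 in G8545 with BOM, against 12.4, 25.6 and 26.2 CPM with DMSO. All 3 genes lay higher with BOM in every line. Nrarp, a feedback inhibitor of Notch, differed from them, with 1.64 CPM in RP-116, 6.05 in RP-48 and 2.02 in G8545 with BOM, against 1.58, 3.50 and 4.60 CPM with DMSO, and lay lower in G8545. Log2 fold changes over the lines were 1.26 (SE 0.27) for Hes1, 2.81 (SE 0.46) for Hes5 and 1.25 (SE 0.30) for Hey1, with edgeR adjusted p-values of 0.221 to 0.407. The BOM effect on Hey1 was larger in G8545 than in the other lines by 1.37 (SE 0.32, adjusted p = 0.00998, edgeR), a call that ended with DESeq2 (adjusted p = 0.275). Over the 5 targets tested the median difference was 0.64 in RP-116, 0.96 in RP-48 and 1.99 in G8545, where the median over all genes tested was -0.01, 0.00 and 0.00. The RP-116 median is that of Hey2, which had 1 count there with BOM and 0 with DMSO.

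The promoter of Hes5 (chr4:154960673-154960972, plus strand, GRCm38.p6, RefSeq) is shown because it carries the RBPJ core TGGGAA, printed in capitals, at -226 as its reverse complement and at -82 as written, counted from the start. RefSeq gives a promoter for 3 of the Notch targets, and 2 of these, Hes5 and Hey2, held that core, which 25.6% of all promoters hold.
Hes5: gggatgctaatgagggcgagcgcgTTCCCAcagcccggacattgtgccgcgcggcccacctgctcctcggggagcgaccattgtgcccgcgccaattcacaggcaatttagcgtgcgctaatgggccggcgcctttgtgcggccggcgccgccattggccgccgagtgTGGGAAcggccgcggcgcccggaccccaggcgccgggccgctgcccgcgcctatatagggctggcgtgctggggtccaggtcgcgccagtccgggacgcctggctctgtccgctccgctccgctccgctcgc

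Among the ligands, Jag1 lay higher in each line, with 25.6 CPM in RP-116, 56.7 in RP-48 and 41.9 in G8545 with BOM, against 16.3, 22.4 and 10.7 CPM with DMSO. Its log2 fold change over the lines was 1.32 (SE 0.25, adjusted p = 0.267, edgeR). Dll1 and Dll3 were past 2-fold lower in G8545 and within 2-fold in the other lines. Dll1 had 78.6 CPM in RP-116, 16.8 in RP-48 and 19.2 in G8545 with BOM, against 85.2, 14.5 and 43.7 CPM with DMSO, and Dll3, a ligand that inhibits Notch within the cell, had 23.6 CPM in RP-116, 2.82 in RP-48 and 54.1 in G8545 with BOM, against 20.4, 2.84 and 121 CPM with DMSO. The effect in G8545 minus that in the other lines was -1.21 (SE 0.31) for Dll1 (adjusted p = 0.0206) and -1.31 (SE 0.33) for Dll3 (adjusted p = 0.0179, edgeR), and DESeq2 called neither (adjusted p = 0.408 and 0.435). Lfng and Mfng, fringe glycosyltransferases that modify Notch receptors, lay on the lower side in each line, and the fit over the lines called neither. Lfng had 45.9 CPM in RP-116, 59.9 in RP-48 and 33.4 in G8545 with BOM, against 65.3, 71.7 and 54.2 CPM with DMSO, and Mfng had 138 CPM in RP-116, 46.8 in RP-48 and 11.4 in G8545 with BOM, against 155, 49.8 and 33.6 CPM with DMSO, with an effect in G8545 minus that in the other lines of -1.42 (SE 0.29, adjusted p = 0.00310, edgeR, and 0.0628 with DESeq2). The other 13 genes of Notch processing and cofactors, among them Rbpj and Adam10, lay within 2-fold wherever they were measured, and the 15 tested had medians of -0.12, -0.06 and -0.05 in RP-116, RP-48 and G8545.

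Several genes near the top of the fit were carried by RP-48 and G8545, with few or no counts in RP-116. Vim, an intermediate filament of mesenchymal cells, had 0.352 CPM in RP-116, 19.2 in RP-48 and 437 in G8545 with BOM, against 0.244, 5.90 and 121 CPM with DMSO. Its log2 fold change over the lines was 1.76 (SE 0.17, adjusted p = 0.0565, edgeR). Fst, the activin-binding follistatin, had 0.117 CPM in RP-116, 40.1 in RP-48 and 44.9 in G8545 with BOM, against 0, 11.8 and 11.3 CPM with DMSO. The calcium channel gene Ryr3 had 0.587 CPM in RP-116, 92.1 in RP-48 and 27.9 in G8545 with BOM, against 0.122, 32.3 and 7.09 CPM with DMSO. Tgfbr2, a TGF-beta receptor, had 6 counts in RP-116 with BOM and 0 with DMSO, and elsewhere 13.7 CPM in RP-48 and 11.6 in G8545 with BOM, against 2.95 and 1.82 with DMSO. The G8545 differences of these genes were all higher than 1.8 log2 units, and in RP-48 each lay past 2-fold. None of these 4 is a gene of all 3 lines, since RP-116 does not reach the 20 counts.

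Genes measured in all lines and past 2-fold higher in RP-48 and G8545 and within 2-fold in RP-116 numbered 62, and 6 more were past 2-fold lower in RP-116. The first 3 of the examples that follow were chosen after their values were seen. Thbs1, the secreted matrix protein thrombospondin-1, had 194 CPM in RP-116, 228 in RP-48 and 38.3 in G8545 with BOM, against 326, 72.9 and 3.26 CPM with DMSO, lower in RP-116 and higher in the other lines. The chemokine gene Cx3cl1 had 44.7 CPM in RP-116, 30.2 in RP-48 and 104 in G8545 with BOM, against 38.5, 9.72 and 9.11 CPM with DMSO. Agt, which encodes angiotensinogen, had 1.88 CPM in RP-116, 108 in RP-48 and 36.7 in G8545 with BOM, against 1.22, 22.6 and 2.49 CPM with DMSO. Egr1 and Fos, immediate early transcription factors switched on by growth signals, split the lines in the same way. Egr1 had 68.5 CPM in RP-116, 64.4 in RP-48 and 73.4 in G8545 with BOM, against 103, 14.9 and 23.1 CPM with DMSO, and Fos had 15.7 CPM in RP-116, 26.3 in RP-48 and 33.8 in G8545 with BOM, against 21.2, 9.39 and 6.42 CPM with DMSO. Both lay lower in RP-116, where they were within 2-fold. The 8 immediate early genes tested had medians of -0.33 in RP-116, 0.40 in RP-48 and 0.74 in G8545.

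RP-116 and G8545 had 29 genes in common on the higher side, of which 20 lay within 2-fold in RP-48. Rest, the repressor of neuronal genes outside neurons, had 2.93 CPM in RP-116, 25.2 in RP-48 and 37.4 in G8545 with BOM, against 0.244, 19.1 and 2.68 CPM with DMSO. With DMSO most of it was in RP-48, and RP-116 had 25 counts with BOM and 2 with DMSO. The RP-48 difference was 0.40, beside 2.79 in RP-116 and 3.70 in G8545, so RP-116 and G8545 both lay well above RP-48. The effect in G8545 minus that in the other lines was 2.95 (adjusted p = 0.00185, edgeR), a call that ended with DESeq2 (adjusted p = 0.999) and with a robust estimate of the spread (adjusted p = 0.0626). The other 10 tested genes of the list of neuronal genes with a REST site lay within 2-fold in RP-116 and RP-48, and in G8545 Gria2 was the single one past it, at 149 CPM with BOM and 66.1 with DMSO, on the higher side. Ppargc1a, a coactivator of mitochondrial biogenesis, had 42.2 CPM in RP-116, 22.2 in RP-48 and 61.2 in G8545 with BOM, against 10.1, 18.4 and 28 CPM with DMSO. The large scaffold protein gene Ahnak had 14.2 CPM in RP-116, 4.54 in RP-48 and 74.5 in G8545 with BOM, against 6.83, 2.51 and 14.5 CPM with DMSO, and lay higher in RP-48 too, short of 2-fold.

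RP-116 and RP-48 shared 11 genes on the higher side and 8 on the lower side that were within 2-fold in G8545. Maf, a transcription factor, had 58.4 CPM in RP-116, 97.9 in RP-48 and 45.4 in G8545 with BOM, against 27.1, 39.5 and 26.5 CPM with DMSO, and Lgals1, the lectin galectin-1, had 1.99 CPM in RP-116, 15.3 in RP-48 and 88.7 in G8545 with BOM, against 0.853, 5.68 and 66.8 CPM with DMSO. Both lay higher in G8545 as well, by 0.78 and 0.41 log2 units. On the lower side, Cldn6, a claudin of tight junctions, had 3.17 CPM in RP-116, 9.58 in RP-48 and 2.30 in G8545 with BOM, against 6.58, 38.6 and 1.53 CPM with DMSO, and Pkp1, a plakophilin of desmosomes, had 16.1 CPM in RP-116, 1.92 in RP-48 and 1.82 in G8545 with BOM, against 44.9, 6.88 and 0.959 CPM with DMSO. In G8545 both lay on the higher side at under 3 CPM. These 4 examples were chosen after their values were seen.

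Most changes that belonged to a single line were those of G8545. A gene was counted for 1 line alone where it was past 2-fold there and within 0.5 log2 units in the other lines, and there were 366 such genes in G8545, 226 higher (1.91% of the 11856 genes) and 140 lower (1.18%). The test of the BOM effect in G8545 against that in the other lines called 528 of 13333 genes, 309 on the higher side (2.32%) and 219 on the lower side (1.64%), with 2111 at an unadjusted p under 0.05. Of the 366 genes it called 199, a count that the choice of the genes on the same values sets in part. This test has 1 residual degree of freedom, the disagreement between RP-116 and RP-48, and DESeq2 called 123 genes with it. The same test of RP-116 called 0 genes (442 at an unadjusted p under 0.05, 2 by DESeq2) and that of RP-48 called 0 (203, and 2 by DESeq2). The residual of each of these tests holds the disagreement of G8545 with the remaining line. Its estimated spread (edgeR's common coefficient of variation) was 0.18 for RP-116 and 0.19 for RP-48, against 0.12 for G8545. The counts called for the lines therefore do not share a yardstick, and a count of 0 does not show that a line had no change of its own.

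Genes of hypoxia and glycolysis lay lowest of the 22 lists in G8545. Of 10 tested, 9 were past 2-fold lower in G8545, 3 in RP-48 and 0 in RP-116, where the shares over all genes measured were 1.89, 0.911 and 0.574%. The test of the line difference called 8 of them lower in G8545, against 1.64% of all genes tested. The medians were -2.57 in G8545, -0.63 in RP-48 and 0.27 in RP-116. Vegfa, the vascular growth factor, had 90.8 CPM in RP-116, 109.7 in RP-48 and 30.2 in G8545 with BOM, against 78.9, 129 and 304 CPM with DMSO, a difference between G8545 and the other lines of -3.31 (SE 0.27, adjusted p = 1.02e-08, edgeR). The G8545 DMSO library held the most Vegfa of the 6 libraries and the G8545 BOM library the least.

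The same order held for other genes of the group, with G8545 at the highest level with DMSO and at or near the lowest with BOM. Hk2, the hexokinase that opens glycolysis, had 20.5 CPM in RP-116, 5.55 in RP-48 and 6.34 in G8545 with BOM, against 10.8, 21.2 and 84.8 CPM with DMSO. Egln3, an oxygen-sensing prolyl hydroxylase, had 30.6 CPM in RP-116, 40.9 in RP-48 and 18.7 in G8545 with BOM, against 31.2, 61.2 and 230.2 CPM with DMSO. For Ldha, which makes lactate, the levels were 575 CPM in RP-116, 545 in RP-48 and 238 in G8545 with BOM, against 431, 768 and 982 CPM with DMSO. For these 3 genes the libraries of RP-116 lay within 2-fold of each other. The glucose transporter gene Slc2a1 had 42.6 CPM in RP-116, 33.9 in RP-48 and 26.3 in G8545 with BOM, against 34.7, 47.7 and 129 CPM with DMSO. Bnip3, a mitophagy receptor, had 15 CPM in RP-116, 11.1 in RP-48 and 6.63 in G8545 with BOM, against 12.1, 33 and 56.2 CPM with DMSO, and the effect in G8545 minus that in the other lines was -2.40 (SE 0.49, adjusted p = 0.00331, edgeR), which ended with DESeq2 (adjusted p = 0.115) and with a robust estimate of the spread (adjusted p = 0.300). For Ankrd37 it was -2.09 (SE 0.62, adjusted p = 0.0521, edgeR), which passed under 3 of 7 alternatives. RP-48 lay on the lower side for each of these 7 genes, at -0.23 for Vegfa and -2.09 for Ankrd37, and RP-116 on the higher side for all except Egln3 (-0.03).

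A second group with lower levels in G8545 was that of the integrated stress response, in which ATF4 switches on genes of amino acid supply. Of 12 tested, 6 were past 2-fold lower in G8545 and called lower there than in the other lines (1.89 and 1.64% of all genes), and 0 were past 2-fold in RP-48 or RP-116. The medians were -1.17, -0.31 and 0.18 in G8545, RP-48 and RP-116. Asns, the asparagine synthetase, had 296 CPM in RP-116, 119.6 in RP-48 and 78.3 in G8545 with BOM, against 284, 186 and 253 CPM with DMSO. Trib3, a pseudokinase induced by ATF4, had 48.6 CPM in RP-116, 15 in RP-48 and 7.30 in G8545 with BOM, against 34.5, 22.2 and 63.7 CPM with DMSO. The mTORC1 inhibitor gene Ddit4, which also responds to low oxygen, had 159 CPM in RP-116, 95.8 in RP-48 and 38.9 in G8545 with BOM, against 156, 135 and 247 CPM with DMSO. For the effect in G8545 minus that in the other lines, Ddit4 had -2.44 (SE 0.27, adjusted p = 1.48e-06) and Asns -1.41 (SE 0.27, adjusted p = 0.00186, edgeR). Atf4 itself was at 381 CPM in RP-116, 236 in RP-48 and 168 in G8545 with BOM and 361, 307 and 281 CPM with DMSO. Slc7a11, the cystine transporter of the same list, lay within 2-fold in each line (0.26, 0.07 and 0.17 log2 units). Eif4ebp1, an inhibitor of translation, was among the 4 genes of G8545 alone with the lowest differences, at 64.8 CPM in RP-116, 48.8 in RP-48 and 2.30 in G8545 with BOM and 48.2, 55.7 and 21.8 CPM with DMSO.

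Promoters of Ldha (chr7:46845554-46845853, plus strand) and Asns (chr6:7693160-7693459, minus strand), both from RefSeq (GRCm38.p6), are shown because they hold the cores that the hypoxia-inducible factors and ATF4 are known to read. Capitals mark ACGTG, a core of the hypoxia-inducible factors, in Ldha and TGATGNAA, a core of the ATF4 element, in Asns, on either strand.
Ldha: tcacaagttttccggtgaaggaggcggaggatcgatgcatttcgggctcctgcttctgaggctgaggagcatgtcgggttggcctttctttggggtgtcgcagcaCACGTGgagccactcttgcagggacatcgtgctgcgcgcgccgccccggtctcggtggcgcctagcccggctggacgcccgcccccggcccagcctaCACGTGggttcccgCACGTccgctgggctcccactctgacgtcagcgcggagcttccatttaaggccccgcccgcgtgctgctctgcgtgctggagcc
Asns: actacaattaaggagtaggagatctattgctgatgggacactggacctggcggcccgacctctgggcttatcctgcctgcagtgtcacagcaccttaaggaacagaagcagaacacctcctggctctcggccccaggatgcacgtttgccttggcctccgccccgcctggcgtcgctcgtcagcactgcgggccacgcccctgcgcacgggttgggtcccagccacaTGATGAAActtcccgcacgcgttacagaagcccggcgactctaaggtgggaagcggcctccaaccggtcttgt
In Ldha there were 5 matches, at -145, -144, -48, -47 and -34, and those next to each other read the same palindrome on both strands, while Asns had 1 match at -23. ACGTG stood in 8 of 13 promoters of the hypoxia list (10 genes) and in 19.6% of all promoters, and TGATGNAA in 5 of 13 promoters of the stress list (12 genes) and in 3.97% of all. Both motifs were chosen after the values were seen, and a match is a description, not a site.

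**Figure D3:**
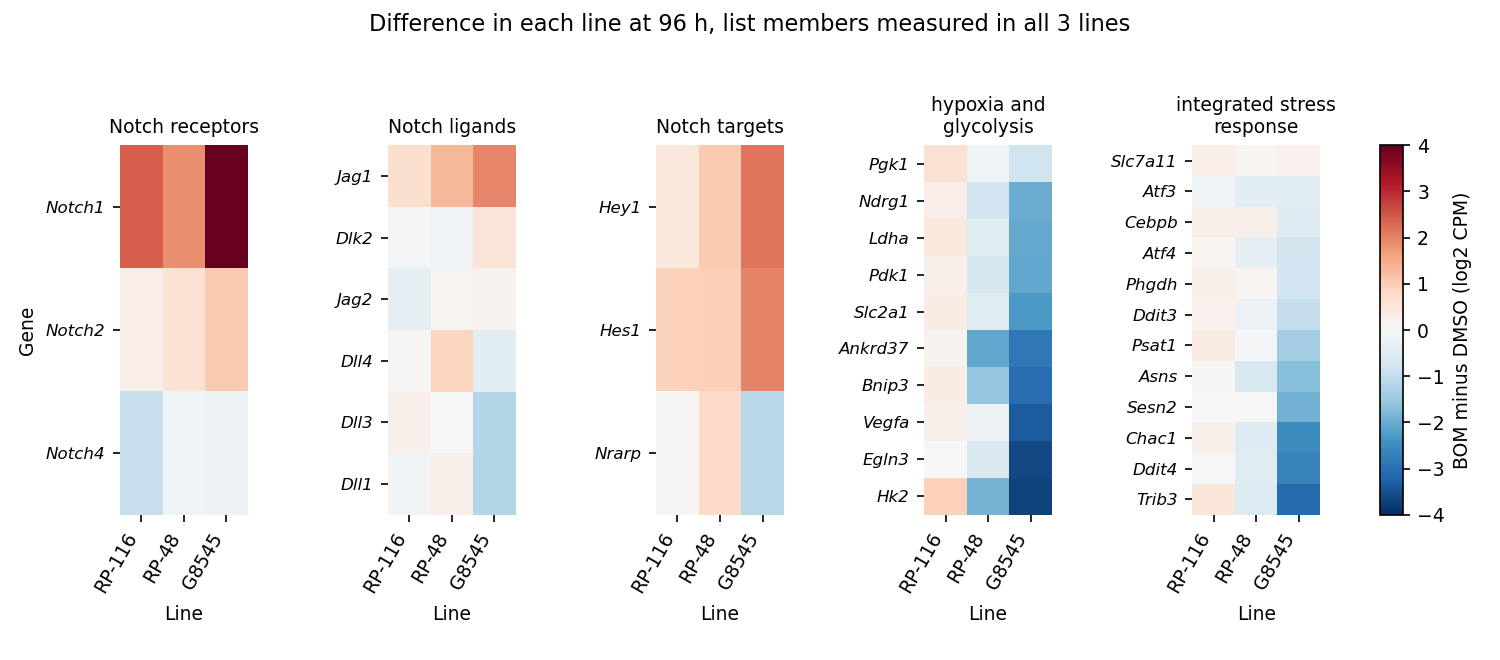
Difference of log2 CPM, BOM minus DMSO, for list members measured in RP-116, RP-48 and G8545, with 1 row per gene and 1 column per line, red for higher and blue for lower with BOM. The hypoxia list is blue in G8545, where Vegfa is at -3.33 log2 units and in RP-116 at 0.20, and Notch1 is higher in each column.

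Of 18 tested transcription factors of the neuroendocrine program, 3 were past 2-fold lower in G8545 and called lower there than in the other lines, among them Hes6 and Sox1, where 1.89% of all genes measured were past 2-fold lower and 1.64% of those tested were called lower. Hes6, which opposes HES1, had 226 CPM in RP-116, 284 in RP-48 and 162 in G8545 with BOM, against 247, 279.8 and 459 CPM with DMSO, and Sox1 had 284 CPM in RP-116, 612 in RP-48 and 155 in G8545 with BOM, against 320.0, 597 and 441 CPM with DMSO. Insm1, Foxa2, Prox1 and Nkx2-1 lay within 2-fold in each line, and 0 of the 17 measured in all 3 lines lay past 2-fold in RP-116 or RP-48. Of the 19 secretory and surface genes of neuroendocrine cells measured in all 3 lines, Vgf was the single one past 2-fold, at 11.6 CPM in G8545 with BOM and 23.9 with DMSO. The levels of Chga were 261 CPM in RP-116, 523 in RP-48 and 422 in G8545 with BOM, against 351, 455 and 281 CPM with DMSO.

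On the higher side of the named genes by size among those of G8545 alone, Rab27b, a GTPase of secretory vesicles, had 11.5 CPM in RP-116, 57 in RP-48 and 139 in G8545 with BOM, against 10.00, 48.5 and 11.5 CPM with DMSO. The matrix protein gene Sned1 had 8.21 CPM in RP-116, 31.6 in RP-48 and 84.2 in G8545 with BOM, against 7.44, 26.7 and 9.01 CPM with DMSO. Both genes lay within 0.5 log2 units in RP-116 and RP-48. The keratin gene Krt80 had 12.6 CPM in RP-116, 36.8 in RP-48 and 13.1 in G8545 with BOM, against 16, 36.2 and 1.53 CPM with DMSO. For Mamdc2 the values were 1.29 CPM in RP-116, 4.94 in RP-48 and 40.0 in G8545 with BOM, against 1.34, 4.37 and 4.70 CPM with DMSO. The effect in G8545 minus that in the other lines was 3.38 (SE 0.31) for Rab27b, 3.02 (SE 0.36) for Sned1, 3.22 (SE 0.47) for Krt80 and 2.97 (SE 0.51) for Mamdc2, each with an edgeR adjusted p of at most 0.000525, and DESeq2 did not call Mamdc2 (adjusted p = 0.0948).

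The largest such difference among the named genes on the higher side was that of Gfap, the filament of astrocytes. It had 0.117 CPM in RP-116, 1.51 in RP-48 and 162 in G8545 with BOM, against 0.122, 3.60 and 15.3 CPM with DMSO, an effect in G8545 minus that in the other lines of 4.57 (SE 0.52, adjusted p = 2.42e-06, edgeR), and it lay lower in RP-48. Igfbp2, a binding protein of insulin-like growth factors, had 226 CPM in RP-116, 146 in RP-48 and 2.21 in G8545 with BOM, against 146, 215 and 73.5 CPM with DMSO, which gave the other end of the range at -5.08 (SE 0.42, adjusted p = 1.02e-08, edgeR). Its G8545 BOM library held 23 counts and the DMSO library 767. Cdkn1c, the cell cycle inhibitor p57, lay higher in each line, with 34 CPM in RP-116, 138 in RP-48 and 238 in G8545 with BOM, against 20.8, 80.2 and 42.6 CPM with DMSO, and more so in G8545 (1.74, SE 0.26, adjusted p = 0.000105, edgeR). Cryba2, a lens crystallin gene found in endocrine cells, was lower in G8545, at 11 CPM in RP-116, 5.14 in RP-48 and 0.960 in G8545 with BOM and 12.9, 6.88 and 8.63 CPM with DMSO.

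RP-48 alone had 68 genes, 47 on the higher side (0.396%) and 21 on the lower side (0.177%). Chrna4, a nicotinic acetylcholine receptor subunit, had 2.11 CPM in RP-116, 23.4 in RP-48 and 4.32 in G8545 with BOM, against 1.46, 3.71 and 4.31 CPM with DMSO. The transcription factor gene Foxd1 had 70.3 CPM in RP-116, 1.82 in RP-48 and 41.6 in G8545 with BOM, against 62.1, 0.328 and 53 CPM with DMSO, from 18 and 3 counts in RP-48. C1qtnf4 and Gpr162, a secreted protein and an orphan receptor, had RP-48 differences of 1.51 and 1.36. On the lower side, Crb3, a polarity protein of the apical membrane, had 0.403 CPM in RP-48 with BOM and 2.84 with DMSO, while in RP-116 it had 11.9 with BOM and 11.2 with DMSO and in G8545 7.20 with BOM and 6.42 with DMSO. Marveld3, of tight junctions, had 12 CPM in RP-116, 2.52 in RP-48 and 4.71 in G8545 with BOM, against 15.4, 7.54 and 4.60 CPM with DMSO, and Mal2, of vesicle transport in epithelial cells, had 139 CPM in RP-116, 40.8 in RP-48 and 54.2 in G8545 with BOM, against 161, 101 and 42.3 CPM with DMSO. Slc16a5, a monocarboxylate transporter, had an RP-48 difference of -2.10 from 8 counts with BOM and 38 with DMSO. The sum of 6 lung epithelium markers was 66.1 CPM in RP-48 with BOM and 109 with DMSO. Foxj1 held the largest part of that difference, at 28.1 CPM with BOM and 65.9 with DMSO, while Sftpc was at 36.6 and 41.8. Ager was at 1.21 and 1.64 CPM, Sftpb at 0.101 and 0, and Scgb1a1 and Krt5 at 0 in both. The part of these markers in the RP-48 values was not tested.

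RP-116 alone had 33 genes, 19 on the higher side (0.160%) and 14 on the lower side (0.118%). Sulf2, an enzyme that trims sulfate from heparan sulfate, had 39 CPM in RP-116, 17.4 in RP-48 and 30.5 in G8545 with BOM, against 11, 24.7 and 34.7 CPM with DMSO. Cotl1, an actin-binding protein, had 29.1 CPM in RP-116, 23.4 in RP-48 and 42.4 in G8545 with BOM, against 12.6, 20.1 and 56 CPM with DMSO. Rel, a subunit of NF-kappaB, and Plppr5 had RP-116 differences of 1.35 and 1.19, the first from 16 and 5 counts. On the lower side were Ablim1, another actin-binding protein, with 5.75 CPM in RP-116, 28 in RP-48 and 13.9 in G8545 with BOM, against 14.9, 21.6 and 17.7 CPM with DMSO, and Syne1, a nuclear envelope protein, with 12 CPM in RP-116, 34.7 in RP-48 and 69.8 in G8545 with BOM, against 25.7, 36.2 and 57.4 CPM with DMSO. Spata2l and N4bp2os had RP-116 differences of -1.75 and -1.02.

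A further set lay past 2-fold in opposite directions. Between RP-48 and G8545 there were 21 such genes, between RP-116 and G8545 22, and between RP-116 and RP-48 8. Smad3, which carries TGF-beta signals to the nucleus, had 25 CPM in RP-116, 17.1 in RP-48 and 38.7 in G8545 with BOM, against 3.78, 36.4 and 5.94 CPM with DMSO, so that RP-48 lay lower and the other lines higher. The effect in G8545 minus that in the other lines was 2.21 (SE 0.74) and did not pass (adjusted p = 0.0954, edgeR), though it passed under 3 of 7 alternatives. Zeb1, a repressor of epithelial genes, had 39.8 CPM in RP-116, 129 in RP-48 and 44.5 in G8545 with BOM, against 16, 91.8 and 99.2 CPM with DMSO, higher in RP-116 and lower in G8545. Esrp2, a splicing factor of epithelial cells, had 72.5 CPM in RP-116, 5.75 in RP-48 and 12.6 in G8545 with BOM, against 94.8, 32.6 and 5.37 CPM with DMSO, and Myh14, a nonmuscle myosin, had 58.3 CPM in RP-116, 24.8 in RP-48 and 34.6 in G8545 with BOM, against 102, 74.3 and 14.7 CPM with DMSO, both lower in RP-48 and higher in G8545. Palmd had 9.51 CPM in RP-116, 101 in RP-48 and 15.1 in G8545 with BOM, against 26.7, 42.7 and 6.81 CPM with DMSO, lower in RP-116 and higher in the other lines. Zeb1, Esrp2 and Myh14 were chosen after their values were seen.

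Mesenchymal genes as a list leaned higher, and differently by line. Of 14 tested, 5 had an unadjusted p under 0.05 on the higher side and 0 on the lower side (4.34 and 1.75% of all genes tested). None passed the fit over the lines, which called 0 of all genes tested. The medians were 0.22 in RP-116, 0.48 in RP-48 and 1.20 in G8545. The 5 were Vim, Cd44, Anxa2, Lgals1 and Ahnak. Of the 6 members measured in all 3 lines, 2 were past 2-fold higher in G8545 and 1 was lower (4.63 and 1.89% of all genes measured). The lower one was Zeb1, whose levels are given above. In RP-116, 8 of the 14, among them Vim, Fn1 and Cd44, had under 1 CPM in both libraries, so the RP-116 median rests on few counts. Fn1, the matrix protein fibronectin, had 608 CPM in G8545 with BOM and 232 with DMSO, and in RP-48 it lay lower, at 32.5 with BOM and 43.3 with DMSO. The hyaluronan receptor gene Cd44 had 49.1 CPM in G8545 with BOM and 14.4 with DMSO. In these G8545 libraries the fibroblast marker Pdgfra and the sum of the fibroblast markers were lower with BOM, 5 of the 10 fibroblast markers, Lum, Thy1, Dcn, Pdgfrb and Fap, were higher, as given above, and Col1a2 and Col3a1 were at 0 in both. Their part in the result was not tested.

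**Figure D4:**
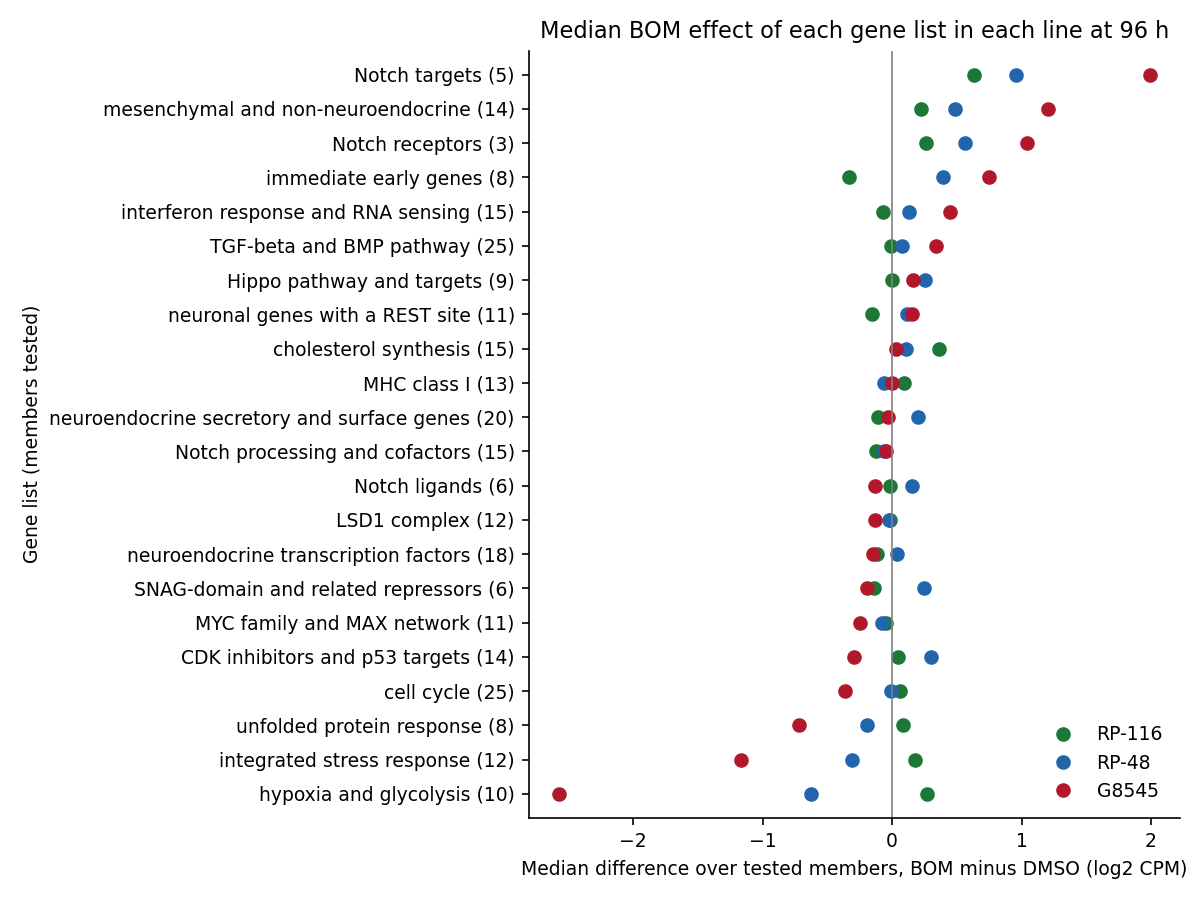
Median difference of log2 CPM, BOM minus DMSO, over the tested members of each of the 22 gene lists, with 1 point per line and the number of members tested in brackets. Hypoxia and glycolysis lies furthest to the left for G8545 at -2.57 and Notch targets furthest to the right at 1.99, and most other lists lie near 0 in each line.

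The 8 genes of the unfolded protein response had medians of 0.09 in RP-116, -0.19 in RP-48 and -0.72 in G8545. In G8545 Herpud1, Sdf2l1 and Dnajb9 were past 2-fold lower, and Herpud1 and Sdf2l1 were called lower than in the other lines, beside 1.89 and 1.64% of all genes. Herpud1, of protein degradation at the endoplasmic reticulum, had 72.9 CPM in RP-116, 72.3 in RP-48 and 63.1 in G8545 with BOM, against 69.4, 75 and 142 CPM with DMSO. Among 25 genes of the TGF-beta and BMP pathway the medians were -0.01, 0.08 and 0.34 in RP-116, RP-48 and G8545. Ltbp4, which binds latent TGF-beta in the matrix, had 9.04 CPM in RP-116, 25.7 in RP-48 and 75.6 in G8545 with BOM, against 5.12, 10.2 and 57.6 CPM with DMSO, and Id3, an inhibitor of helix-loop-helix factors, had 119 CPM in RP-116, 124 in RP-48 and 253 in G8545 with BOM, against 123, 85.8 and 160.3 CPM with DMSO.

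In the Hippo pathway the lines differed in which coactivator they held. Yap1 had 15 CPM in RP-116, 0 in RP-48 and 25.2 in G8545 with BOM, against 12.3, 0 and 9.49 CPM with DMSO, so it was not seen in RP-48. Its partner Wwtr1, which encodes TAZ, was near 0 in RP-116, with 0.235 CPM in RP-116, 3.73 in RP-48 and 11.7 in G8545 with BOM, against 0.122, 1.42 and 2.40 CPM with DMSO. Over 9 Hippo genes tested the medians were 0.00, 0.25 and 0.16 in RP-116, RP-48 and G8545. Of the 13 cell cycle inhibitors and p53 targets measured in all 3 lines, Cdkn1c was the single gene past 2-fold, in G8545. Cdkn1a, the inhibitor p21, had 41.4 CPM in RP-116, 58.2 in RP-48 and 63.9 in G8545 with BOM, against 34.3, 57.2 and 111 CPM with DMSO, and lay lower in G8545. The 6 tested repressors with a SNAG domain or related to them had medians of -0.14, 0.24 and -0.19, and Gfi1 had 61.4 CPM in RP-116, 43.7 in RP-48 and 8.36 in G8545 with BOM, against 68.6, 37.1 and 7.0 CPM with DMSO.

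Other lists lay closer to 0. The 25 cell cycle genes had medians of 0.06 in RP-116, 0.00 in RP-48 and -0.36 in G8545, with 0 past 2-fold in any line. Over 15 genes of cholesterol synthesis the medians were 0.36, 0.11 and 0.03 in the same lines, again with 0 past 2-fold. MHC class I genes, 13 tested, had medians of 0.10, -0.07 and 0.00, and 0 of the 10 measured in all 3 lines were past 2-fold. For 15 interferon response and RNA sensing genes the medians were -0.07, 0.13 and 0.44. In G8545 the 3 genes of the cytosolic RNA sensors, Ifih1, Ddx58 and Dhx58, lay past 2-fold higher, beside 4.63% of all genes measured. Their levels with DMSO were low. The test of the line difference called 1 gene of this list higher in G8545, against 2.32% of all genes tested. Ifih1 had 13.1 CPM in G8545 with BOM and 3.45 with DMSO, Ddx58 5.47 and 1.53, and Dhx58 2.21 and 0.767, whereas in RP-116 Ddx58 lay lower, at 1.53 with BOM and 3.29 with DMSO. The 12 genes of the LSD1 complex had medians of -0.02, -0.02 and -0.13, and Rcor2, a CoREST protein, was the exception, with 176 CPM in RP-116, 36 in RP-48 and 43.2 in G8545 with BOM, against 196, 58 and 126 CPM with DMSO. The effect on Rcor2 in G8545 minus that in the other lines was -1.14 (SE 0.27, adjusted p = 0.0126, edgeR, and 0.227 with DESeq2). Of the 11 genes of the MYC family and MAX network, 2 were past 2-fold lower in G8545 (1.89% of all genes). The family member Mycl was at 38827 CPM in RP-116 with BOM, 2953 in RP-48 and 428 in G8545, against 48404, 4912 and 792 with DMSO, lower in each line (-0.32, -0.73 and -0.89 log2 units). Its log2 fold change over the lines of -0.65 (SE 0.19) did not pass (adjusted p = 0.540, edgeR). Whether the RP-116 cells carry an added copy of Mycl is not in the labels, so the source of these counts cannot be told apart. The fit over the 3 lines called 0 of the 13333 genes tested, so none of the 22 lists could hold a call.

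Whether genes of 96 h were also different in a longer culture was read from RP-48OVA-LLO190 after 10 d, a set of libraries that the choice above did not use, though by its name the line may not be independent of RP-48. There 15230 genes were tested, 1837 were called higher (12.1%) and 1257 lower (8.25%, edgeR, adjusted p under 0.05). Of the 8 genes higher in all 3 lines 6 were called higher at 10 d. Notch1 had 243 and 269 CPM with BOM, against 25.6, 27.4 and 27.3 with DMSO, a difference of 3.26 on the log2 scale (SE 0.12, adjusted p = 1.65e-11, edgeR). Itpr3 had 202 and 244 CPM with BOM, against 64, 61.3 and 52.3 with DMSO (log2 fold change 1.91, SE 0.11, adjusted p = 2.28e-09, edgeR). Sdk2, Megf10 and Slc12a4 had log2 fold changes of 3.09, 2.93 and 1.06. Itgb4 (8.56 and 5.42 CPM with BOM, against 4.59, 6.89 and 5.46 with DMSO) and Tm6sf1 (5.29 and 6.47 CPM with BOM, against 2.78, 2.69 and 4.05 with DMSO) were not called (adjusted p = 0.520 and 0.0807, edgeR), and Insrr was at 0 in both BOM libraries, against 0.557, 0.504 and 1.41 CPM with DMSO, too low to be tested. The tables differ in RNA fraction, so their values stand side by side without a test of the difference.

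Genes of 1 line were called at 10 d in numbers that are given here as a description, beside the 12.1% of all genes tested that were called higher there and the 8.25% called lower. Of the genes of RP-48 alone on the higher side, 17 of 46 tested were called higher at 10 d and 1 lower, and of those on the lower side 5 of 20 were called lower and 0 higher. Of the genes of G8545 alone 77 of 224 on the higher side were called higher and 12 lower, and 52 of 139 on the lower side were called lower and 5 higher. For RP-116 alone the counts were 5 higher and 1 lower of 18 on the higher side, and 0 lower of 14 on the lower side. Several lists held calls at 10 d. Of 10 tested immediate early genes 8 were called higher and 0 lower, and of 17 mesenchymal genes 12 higher and 1 lower. Of 26 TGF-beta and BMP genes 12 were called higher and 0 lower, and of 17 MHC class I genes 8 higher and 1 lower. Of 20 neuroendocrine secretory and surface genes 9 were called higher and 1 lower. The 18 neuroendocrine transcription factors tested held 4 called higher and 7 lower. Of 26 interferon response and RNA sensing genes 9 were called higher and 1 lower, and of 11 Hippo genes 5 higher and 0 lower. Of 12 integrated stress response genes 3 were called lower and 0 higher. Of the 10 tested genes of hypoxia and glycolysis, 9 were called lower at 10 d and 0 higher. Vegfa had 85.8 and 68.3 CPM with BOM, against 269.8, 178 and 180.1 with DMSO (-1.44, SE 0.27, adjusted p = 0.000751, edgeR), and Hk2 had 16.5 and 15.2 CPM with BOM, against 48.1, 30.7 and 34 with DMSO (-1.25, SE 0.25, adjusted p = 0.00130, edgeR). Ldha was not called (241 and 219 CPM with BOM, against 330.2, 279 and 246 with DMSO, adjusted p = 0.229, edgeR), and of the genes higher in G8545 neither Sned1 nor Krt80 was (adjusted p = 0.429 and 0.903, edgeR). Gfap had 31 and 21.1 CPM with BOM, against 4.87, 4.53 and 7.04 with DMSO (2.25, SE 0.23, adjusted p = 1.67e-06, edgeR), and was called higher, as was Rab27b (2.51, SE 0.45, adjusted p = 0.000565, edgeR).

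**Figure D5:**
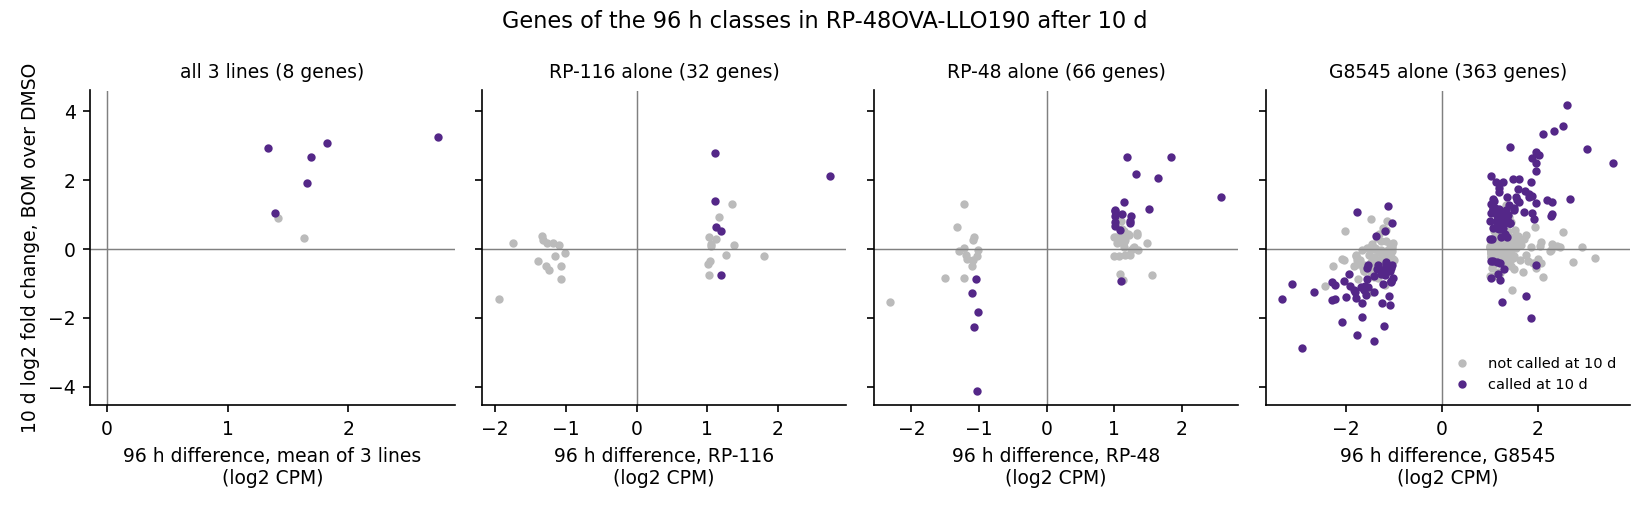
Difference at 96 h (horizontal axis, log2 CPM, BOM minus DMSO, in the line named or as the mean of 3 lines) against the log2 fold change at 10 d in RP-48OVA-LLO190 (vertical axis) for 8, 32, 66 and 363 genes of each class tested at 10 d. Points for the 8 genes higher in all 3 lines lie above 0 on both axes, and the genes of RP-116 alone lie on either side of 0 at 10 d.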

How the data were processed

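RNA was measured as polyadenylated RNA at 96 h (6 libraries) and as total RNA at 10 d (5 libraries compared). The 10 d fit also held the RP-48OVA-LLO190 libraries from 10 d in BOM or DMSO with IFNg. These shared the gene filter, the scaling and the estimate of the spread, so the 10 d p-values rest on them too. The deposited tables hold raw counts per gene. Per the submitters' processing notes, FastQC 0.11.9, STAR 2.7, featureCounts, Subread 2.0 and the build mm10 were used, and per the labels' protocols the RNA was extracted with TRIzol and the 96 h libraries made with NEBNext Ultra. The table of 28432 genes was fitted whole. Genes were kept by filterByExpr, scaled by TMM and tested with edgeR 4.0.16 (quasi-likelihood, the line as a block, Benjamini-Hochberg adjusted p under 0.05), so the lines are the replicates (n = 3). A further term tested each line's BOM effect against that of the other lines. With 1 library per line and treatment, differences within a line (log2 CPM, prior count 2) carry no test, and exact 95% intervals cover counting error only. Nothing in the labels says how the cultures were kept apart, so p-values measure the spread between these libraries. limma 3.58.1, DESeq2 1.42.0, other filters and scalings, leaving out each line and other folds were tried.

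Gene names and coordinates are from GENCODE M21 (27936 of 28432 IDs, 98.3%), promoters from RefSeq. Members and lists were chosen with earlier results of these data known. Named genes were up to 12 higher and 10 lower in all 3 lines by the smallest difference and 4 higher and 4 lower of each line alone, each averaging 2 or more log2 CPM, the 3 lowest p of each list, the 6 lowest p of the fit, the lowest 2 of each line test and a fixed set around Kdm1a and Notch1. Results of some genes are not reported here. Other genes named only by their levels were chosen after their values were seen. Figures were drawn with matplotlib 3.10.9.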

Additional observations from a re-analysis of the deposited data

Results flagged for a closer look

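Each result here was picked out because the BOM effect differed between lines by a test of that difference (edgeR, G8545 against RP-116 and RP-48, adjusted p under 0.05, 1 residual degree of freedom). In all 528 of 13333 genes did. All values that follow are the effect in G8545 minus that in the other lines, in log2 units.

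Below 0 lay genes of hypoxia and nutrient stress, with Vegfa at -3.31, Bnip3 at -2.40, Ndrg1 at -1.70, Ddit4 at -2.44 and Asns at -1.41. Igfbp2 was at -5.08, Eif4ebp1 at -3.35 and Cryba2 at -2.84. Of the Notch genes, Dll1 was at -1.21, Dll3 at -1.31 and Mfng at -1.42, and the CoREST gene Rcor2 was at -1.14. Above 0 were Notch1 at 1.98 and its target Hey1 at 1.37, Rest at 2.95 and the cell cycle inhibitor Cdkn1c at 1.74. Rab27b was at 3.38, Sned1 at 3.02, Krt80 at 3.22, Mamdc2 at 2.97 and Gfap at 4.57. With DESeq2 10 of these calls ended (adjusted p 0.0628 to 0.999), those of Bnip3, Ndrg1, Cryba2, Dll1, Dll3, Mfng, Rcor2, Hey1, Rest and Mamdc2, and those of Bnip3 and Rest also ended with a robust estimate of the spread. Rest lay higher in RP-116 too, by 2.79 beside 3.70 in G8545 and 0.40 in RP-48. Any other difference between the G8545 cultures cannot be told apart from BOM.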

How the results depend on the processing

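The number of genes called over the 3 lines, 0, depended on the tool and filter. It was 59 with DESeq2, 2 with library-size scaling, 310 with no filter, 2 where at least 1 CPM in at least 2 libraries was asked for, and 2 with a robust estimate of the spread, an alternative chosen after seeing the data. It was 0 with limma voom, with DESeq2's size factors and with no replicate block for the line, and 0 to 149 when 1 line was left out (149 without G8545, 1 without RP-116). The RP-116 test called 2 genes with DESeq2 and 60 with no filter instead of 0, the RP-48 test called 2 with DESeq2 instead of 0, and the G8545 test called 123 with DESeq2 instead of 528. The cause of these differences was not tested.

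The counts by fold depended on the fold and on the counts asked for. Genes higher in all 3 lines numbered 57 at 1.5-fold, 1 at 3-fold and 3 with at least 100 counts, and 21 to 126 when 1 line was left out. Genes lower in all 3 lines numbered 4, 0 and 0, and 7 to 14 when 1 line was left out, where only 2 lines have to share the change. Genes of RP-116 alone numbered 227 at 1.5-fold, 4 at 3-fold and 8 with at least 100 counts, those of RP-48 alone 434, 6 and 19, and those of G8545 alone 1462 at 1.5-fold and 99 at 3-fold. Of the named fold changes 248 of 308 values kept their side of the threshold and 60 passed it in addition, and 0 turned round. Of the G8545 differences 12 of 175 no longer passed, 10 of them with DESeq2 and 2 with the robust spread.

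At 10 d the numbers did not pair the samples (correlations of deviations 0.11 and 0.08), and with the replicate block 6 of the 8 shared genes were called higher, as in each other alternative. With 8.71 to 9.97 M counts a library, genes under about 20 counts per line could not be placed, among them Hes5 and Vim in RP-116.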
